A study of Mus musculus with 30 samples.

Results

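The genes described here encode receptors and adaptors through which the liver reads insulin, glucagon, leptin, prolactin, leukaemia inhibitory factor and several growth factors. They are Insr, Irs1, Irs2, Gcgr, Lepr, Prlr, Lifr, Egfr, Met and Fgfr4, 10 of the 17990 genes in the deposited count table, chosen by symbol. All 10 passed the filter on low counts in both sexes. RNA came from livers of 10 week old ICR offspring, an outbred stock. Their dams had taken in 2,4-BPS, BPSIP, BPS or E2 with drinking water through pregnancy and until weaning. Female and male offspring form separate groups, so that 5 treatments give 10 groups of 3 libraries. Each library is taken here as the RNA of a single liver, and the livers of a group as coming from litters of different dams. Whether any library was pooled or mixed was not tested.

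According to the labels there were 8 dams per treatment. Their water held a compound at 10 ng/mL for about 40 days and was adjusted to an intake of 5 µg/kg per day. All groups, the controls included, received 0.001% ethanol. BPS is a bisphenol with a sulfone bridge, 2,4-BPS is its isomer with a hydroxyl group at another ring position, and BPSIP carries an isopropyl ether in place of a hydroxyl group. E2 is estradiol, the main natural oestrogen. The offspring themselves were not dosed after weaning, so that the values describe adult livers some weeks after exposure ended.

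Insulin binds the receptor tyrosine kinase encoded by Insr, which phosphorylates the adaptors IRS1 and IRS2 and thereby recruits phosphoinositide 3-kinase and AKT. Glucagon acts in the opposite sense through the G protein-coupled receptor encoded by Gcgr, which raises cyclic AMP. Lepr, Prlr and Lifr encode cytokine receptors that signal through Janus kinases and STAT factors, LIFR together with the shared chain encoded by Il6st. Egfr, Met and Fgfr4 encode receptor tyrosine kinases for epidermal growth factor and its relatives, hepatocyte growth factor, and the intestinal FGF that restrains bile acid synthesis. In rodent liver Prlr is known as a gene with higher expression in females and Egfr as one with higher expression in males.

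Promoters are shown for 5 members so that what stands before their start sites can be compared: Lepr, Irs2 and Egfr, with the largest shifts in females below, Irs1 beside Irs2, and Prlr, with a large sex difference. Of the 10 members, 9 have at least 1 start site in the RefSeq promoter table (GRCm38.p6), with 13 start sites in all. Insr has no entry. The stretches cover the 250 bases before a start site, 5′ to 3′ on the strand of the gene, in lower case with matches to the motifs named below in capitals.
Irs1, chr1:82291440-82291689, minus strand: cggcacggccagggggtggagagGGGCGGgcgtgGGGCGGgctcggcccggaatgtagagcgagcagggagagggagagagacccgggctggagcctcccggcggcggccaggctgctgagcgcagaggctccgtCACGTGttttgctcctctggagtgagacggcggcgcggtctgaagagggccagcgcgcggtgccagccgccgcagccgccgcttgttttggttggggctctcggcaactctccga
Irs2, chr8:11008930-11009179, minus strand: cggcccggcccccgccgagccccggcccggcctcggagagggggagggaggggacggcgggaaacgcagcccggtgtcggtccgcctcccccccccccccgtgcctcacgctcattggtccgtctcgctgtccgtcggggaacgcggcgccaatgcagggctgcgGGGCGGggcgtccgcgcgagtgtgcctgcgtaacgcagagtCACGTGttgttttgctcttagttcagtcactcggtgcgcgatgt
Lepr, chr4:101717157-101717406, plus strand: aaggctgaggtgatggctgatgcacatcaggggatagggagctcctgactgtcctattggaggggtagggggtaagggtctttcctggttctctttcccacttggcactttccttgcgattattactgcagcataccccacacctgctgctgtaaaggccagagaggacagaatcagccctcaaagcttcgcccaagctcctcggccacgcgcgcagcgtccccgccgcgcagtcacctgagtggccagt
Lepr, chr4:101717656-101717905, plus strand: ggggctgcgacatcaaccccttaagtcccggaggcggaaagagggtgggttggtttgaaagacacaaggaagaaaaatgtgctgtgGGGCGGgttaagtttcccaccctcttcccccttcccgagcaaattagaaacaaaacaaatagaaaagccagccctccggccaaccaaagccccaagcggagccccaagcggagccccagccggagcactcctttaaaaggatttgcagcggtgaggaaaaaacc
Prlr, chr15:10223656-10223905, plus strand: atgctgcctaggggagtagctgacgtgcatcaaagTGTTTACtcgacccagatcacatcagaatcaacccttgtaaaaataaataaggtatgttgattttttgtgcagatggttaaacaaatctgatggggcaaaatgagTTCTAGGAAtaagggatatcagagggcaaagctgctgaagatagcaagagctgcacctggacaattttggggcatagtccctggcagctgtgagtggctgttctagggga
Egfr, chr11:16751953-16752202, plus strand: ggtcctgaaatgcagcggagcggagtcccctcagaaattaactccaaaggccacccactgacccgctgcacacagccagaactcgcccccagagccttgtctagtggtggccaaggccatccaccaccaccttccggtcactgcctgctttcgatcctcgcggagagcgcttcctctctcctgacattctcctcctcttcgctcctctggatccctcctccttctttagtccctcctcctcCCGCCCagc
The search covered both strands for the STAT motif TTCNNNGAA, the FOXO motif GTAAACA, the cyclic AMP response element TGACGTCA, the oestrogen response element (GGTCA and TGACC with any 3 bases between), the E-box CACGTG, the D-box TTATGTAA, the GC box GGGCGG and the TATA box TATAAA. No matches overlapped in the members. Irs1 and Irs2, the insulin receptor adaptors, each held an E-box, as did Met, and E-boxes stood in 6.02% of all 32851 windows of this length. The shown Prlr window, the middle of its 3, held a FOXO and a STAT match, which 3.17% and 7.02% of all windows hold. GC boxes stood in 8 of the 13 member windows and in 32.7% of all windows. A D-box stood in 1 member window, a further Prlr start, and in 0.819% of all windows. The oestrogen response element (0.0639% of all windows), the cyclic AMP response element (1.55%) and the TATA box (12.4%) had no match in the 13 windows. A match is a description of the letters only.

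The libraries held 29711711 to 37719069 counts. Summed over 4 Y-linked genes, the CPM (the count relative to library size after TMM scaling) was 0.543 or less in female libraries and 131 to 169 in exposed male libraries. It was 84.7 to 95.3 CPM in the 3 libraries labelled male control. In those 3 libraries a list of 16 female-specific liver genes summed to 3592 to 4129 CPM, against 239 to 1501 CPM in exposed males and 6758 to 9552 CPM in females. The libraries are therefore called labelled male control, and males are compared mainly among the 4 exposures. Hepatocyte markers were high in every group (11 genes, together 89931 to 167156 CPM).

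The labelled male control libraries lay outside the range of the exposed male libraries in 4 of the 10 members. The share of all genes that did so was not counted, so the 4 are a description only. Between an exposed male group and these libraries 33.6% to 43.2% of all genes were called. Prlr (223 to 248 CPM) and Lifr (767 to 782 CPM) lay above every exposed male library, and Egfr (438 to 489 CPM) and Gcgr (167 to 184 CPM) below. For Prlr and Egfr their mean lay between that of female controls and that of exposed males. Lifr lay above both, since female controls had 560.2 ± 20.4 CPM and exposed males 327 to 393 CPM. Lepr lay at the exposed male end: the labelled male controls had 3.96, 3.99 and 4.18 CPM, within the 2.16 to 4.96 CPM of exposed males, against 24.2, 22.7 and 23.1 CPM in female controls.

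Per transcript length, in the deposited FPKM, Gcgr had the highest mean over the 30 libraries, 64.9. Lifr (47.4) and Egfr (47.3) followed, then Prlr (19.8), Met (12.2), Insr (12.1) and Fgfr4 (10.3). The adaptors Irs2 (3.80) and Irs1 (2.11) and the leptin receptor gene Lepr (1.43) were the lowest. The order at the top differed between groups. Egfr had a higher group mean than Gcgr in males under E2 (82.1 against 64.5) and BPS (72.8 against 68.7). Lifr had a higher one in females under 2,4-BPS (75.8 against 54.0) and BPSIP (54.0 against 52.7) and in the labelled male controls (68.9 against 59.3). Between group means the widest range was that of Lepr, 9.22-fold, followed by Prlr (6.50-fold), Egfr (5.43-fold) and Irs2 (4.07-fold). The narrowest were Irs1 (1.45-fold) and Met (1.49-fold).

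**Figure D1:**
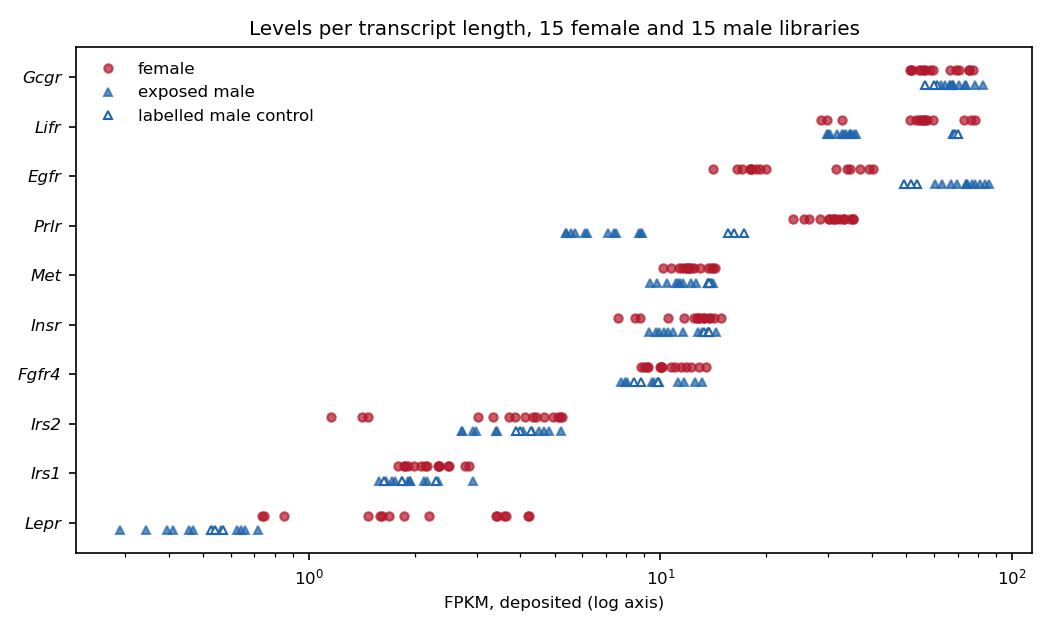
Level of each member per transcript length, as deposited FPKM on a log axis, with a circle for each of 15 female libraries, a filled triangle for each of 12 exposed male libraries and an open triangle for each of 3 labelled male controls. Female circles lie apart from exposed male triangles for Egfr (lower in females) and Prlr (higher in females), and Lepr in females spans 0.735 to 4.23 FPKM.

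Exposed and control females were compared to see which of these genes still differed in adulthood. Lepr fell under each of the 3 bisphenols and most under BPSIP, Egfr about doubled under 2,4-BPS and BPS, and Irs2 and Insr fell under BPSIP. Lifr fell under E2 and rose under 2,4-BPS. Under 2,4-BPS, 3 members rose and 3 fell, where 19.3% of all genes were called, 10.9% higher and 8.42% lower. Under BPSIP, 1 rose and 6 fell (38.6% of all genes called, 19.4% higher and 19.2% lower). Under BPS, 4 rose and 3 fell (16.8%, 9.32% higher and 7.5% lower), and under E2 2 rose and 2 fell (21%, 10.4% higher and 10.6% lower). The median member change was −0.06, −0.24, 0.04 and −0.04 on the log2 scale for 2,4-BPS, BPSIP, BPS and E2, beside 0.00, −0.01, −0.01 and −0.01 over all genes. The 4 comparisons share the same 3 control libraries. Without female control library 2 the count for E2 was 2 in place of 4. RNA was taken from whole liver, so that fewer cells of a type and less RNA per cell cannot be told apart.

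**Figure D2:**
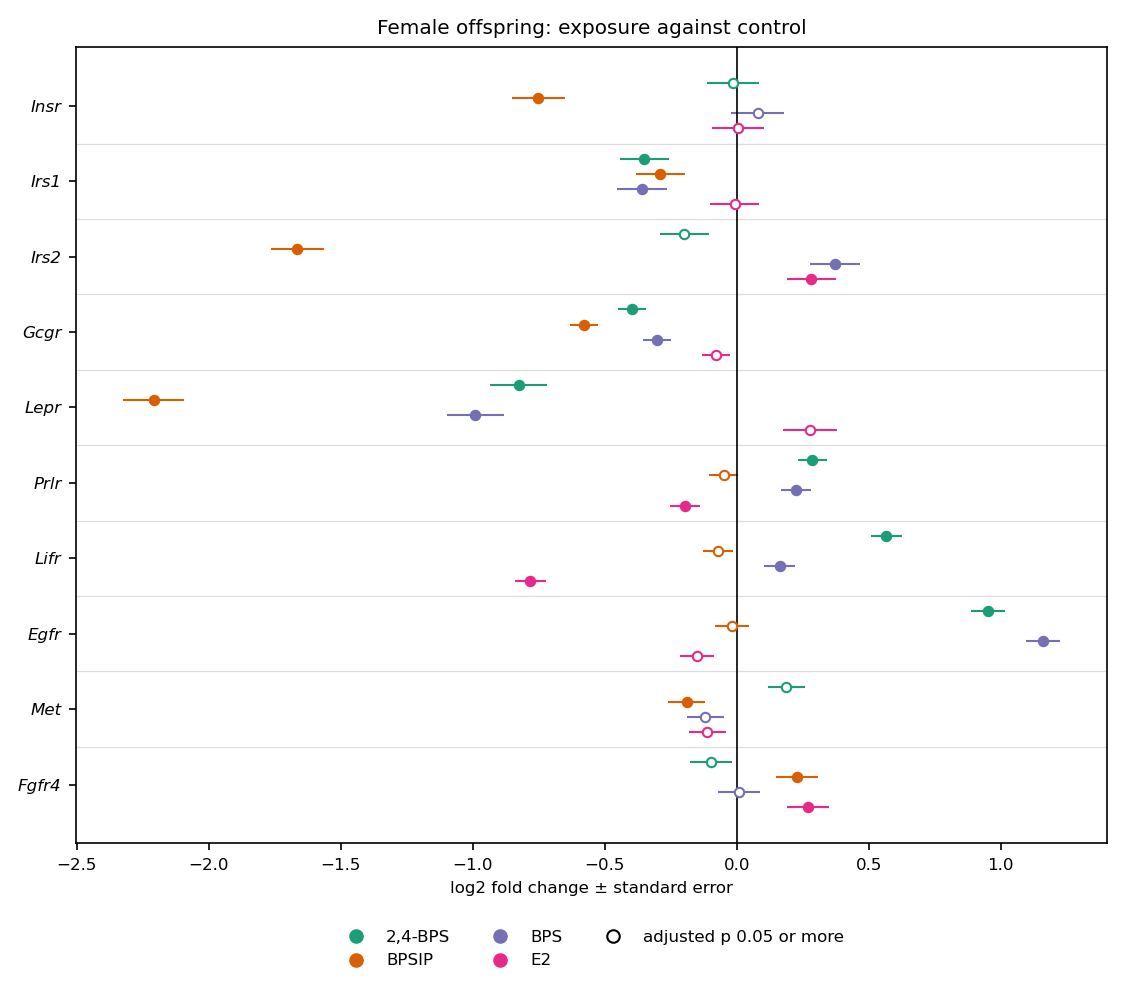
Log2 fold change with its standard error for each member in females, in 1 colour per exposure against 3 control libraries; open circles did not pass an adjusted p of 0.05. The falls of Lepr (−2.21) and Irs2 (−1.66) under BPSIP and of Lepr under BPS (−0.99) lie far below 0, and the rises of Egfr under BPS (1.16) and 2,4-BPS (0.95) far above it.

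Insr, the insulin receptor gene, fell in females under BPSIP. The control libraries had 127, 118 and 115 CPM and the BPSIP libraries 63.9, 75.9 and 74.6 CPM. The BPSIP libraries lay below every other female library, with a log2 fold change of −0.75 ± 0.10 (± gives the standard error beside a log2 value and the SD beside a CPM, n = 3 per group) and an adjusted p of 1.4e-05. Under 2,4-BPS (122, 125 and 109 CPM), BPS (114, 132 and 132 CPM) and E2 (136, 101 and 125 CPM) the libraries overlapped those of control. In males Insr had 112, 139 and 129.6 CPM under BPSIP and lay above the mean of the other 3 exposures (0.27 ± 0.05, adjusted p = 3.21e-06). It did not pass against E2 (122, 138 and 131 CPM, −0.04 ± 0.06, adjusted p = 0.635). Its lowest male levels were under BPS, 94.0, 89.3 and 85.5 CPM (−0.42 ± 0.05 against the mean of the other 3, adjusted p = 2.49e-10).

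Irs2 encodes the adaptor whose transcript is known to rise in fasting and to fall after insulin. In females it stood at 28.8, 24.7 and 26.7 CPM in controls and 8.65, 7.25 and 9.42 CPM under BPSIP. The groups did not overlap, and the log2 fold change was −1.66 ± 0.10 (adjusted p = 4.94e-16). Under BPS it rose to 34.3, 32.2 and 36.5 CPM (0.37 ± 0.09, adjusted p = 0.00405). Under E2 it had 33.8, 30.3 and 33.6 CPM, all above the control libraries (0.28 ± 0.09, adjusted p = 0.0267, but 0.145 without female control library 2, 0.0699 without female control library 3, 0.0601 without female E2 library 1 and 0.0908 without female E2 library 3). With 2,4-BPS the 3 libraries had 22.7, 26.4 and 20.4 CPM and overlapped those of control (−0.20 ± 0.09, adjusted p = 0.149, and 0.0319 without female 2,4-BPS library 2). In males the order was another one: 2,4-BPS had the highest mean (31.03, 36.9 and 33.3 CPM) and BPS the lowest (19.9, 18.2 and 18.2 CPM). E2 males (28.1, 31.2 and 33.6 CPM) overlapped those of 2,4-BPS, which did not pass against E2 (0.11 ± 0.08, adjusted p = 0.344). Against the mean of the other 3 exposures the male value was 0.52 ± 0.07 for 2,4-BPS and −0.63 ± 0.07 for BPS, with adjusted p of 4.95e-09 and 8.47e-11.

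Irs1, the other adaptor, moved less. Its female controls had 25.1, 21.7 and 21.8 CPM. It was lower under 2,4-BPS (16.5, 20.02 and 17.1 CPM), BPSIP (17.8, 19.9 and 18.5 CPM) and BPS (17.8, 17.3 and 17.98 CPM), each without overlap with controls. The log2 fold changes were −0.35 ± 0.09, −0.29 ± 0.09 and −0.36 ± 0.09, with adjusted p of 0.00566, 0.0119 and 0.00580. These calls rest on single libraries. The adjusted p became 0.0636 without female control library 1 and 0.0522 without female 2,4-BPS library 1 for 2,4-BPS, 0.103 without female control library 1 and 0.0578 without female BPSIP library 1 for BPSIP and 0.0646 without female control library 1 for BPS. Under E2 the libraries (24.9, 21.9 and 21.5 CPM) overlapped those of control.

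Gcgr, the glucagon receptor gene, fell under all 3 bisphenols in females. Controls had 209.8, 201 and 205 CPM. The level was 147, 167 and 153 CPM under 2,4-BPS, 139, 136 and 136 under BPSIP and 164, 163 and 169.8 under BPS, below the controls in 9 of 9 libraries. The log2 fold changes were −0.40 ± 0.05, −0.58 ± 0.05 and −0.30 ± 0.05 (adjusted p = 3.76e-07, 2.41e-11 and 5.34e-05). E2 left 195, 202 and 188 CPM (−0.08 ± 0.05, adjusted p = 0.331). In males BPSIP had the highest mean Gcgr, 241, 216 and 224 CPM (0.23 ± 0.04 against the mean of the other 3 exposures, adjusted p = 1.53e-06). These libraries overlapped those of 2,4-BPS males (191, 218 and 196 CPM). BPSIP passed against 2,4-BPS (0.17 ± 0.05, adjusted p = 0.00256, but 0.0618 without male BPSIP library 1 and 0.0558 without male 2,4-BPS library 1).

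Of 29 genes listed as partners of the insulin receptor branch, 7 of 29 rose and 3 fell under 2,4-BPS in females, 6 of 29 rose and 13 fell under BPSIP, 4 of 29 rose and 3 fell under BPS and 3 of 29 rose and 6 fell under E2. Trib3, the gene of a pseudokinase that binds AKT, fell under BPSIP (−2.32 ± 0.22), while Ptpn1, a phosphatase gene that acts on the insulin receptor, rose (0.53 ± 0.07). Of 24 genes known to follow insulin, fasting or glucagon, 5 of 24 rose and 10 fell under 2,4-BPS, 6 of 24 rose and 13 fell under BPSIP, 9 of 24 rose and 4 fell under BPS and 8 of 24 rose and 4 fell under E2. The median log2 changes, for the 3 bisphenols as ordered above and then E2, were 0.02, −0.16, 0.03 and −0.02 for the 29 partners and −0.11, −0.25, 0.08 and 0.10 for the 24 genes, where the medians of all genes lay between −0.01 and 0.00. Of all genes 19.3%, 38.6%, 16.8% and 21% were called in that order.

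Markers of other cell types and clock genes, which follow the time of day, moved in each exposed female group. Female controls had summed levels of 1374 to 1427 CPM for Kupffer cell and macrophage markers, 589 to 603 for sinusoidal endothelial markers, 37.1 to 40.1 for lymphocyte and neutrophil markers and 860.1 to 895 for clock genes. In BPSIP females the Kupffer list summed to 2137 to 2380.5 CPM (11 of 12 higher and 0 lower), the endothelial list to 449.8 to 477 CPM (1 of 10 higher and 7 lower), the lymphocyte and neutrophil list to 51.7 to 66.3 CPM (6 of 11 higher and 0 lower) and the clock list to 672 to 708 CPM (3 of 19 higher and 10 lower). In 2,4-BPS females the Kupffer list summed to 1936 to 2039 CPM (12 of 12 higher and 0 lower) and the clock list to 823 to 846 CPM (7 of 19 higher and 4 lower). In BPS females the lymphocyte and neutrophil list summed to 16.9 to 21.2 CPM (0 of 11 higher and 8 lower), while the clock list had 9 of 19 higher and 7 lower at a sum of 802 to 848 CPM. In E2 females the clock list summed to 435 to 471 CPM (4 of 19 higher and 14 lower) and the Kupffer list to 1229.7 to 1294 CPM (1 of 12 higher and 7 lower). Of all genes 38.6% were called under BPSIP, 19.3% under 2,4-BPS, 16.8% under BPS and 21% under E2. No marker of these 4 lists was at 0 in the female groups. Their part in the changes of the members was not tested.

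Among the cytokine receptors, Lepr had the widest response. The table counts the signalling and the short forms of the leptin receptor together. Female controls had 24.2, 22.7 and 23.1 CPM. Levels were 15.5, 12.4 and 11.3 CPM under 2,4-BPS, 5.39, 4.87 and 4.86 under BPSIP and 11.0, 13.4 and 10.6 under BPS, with no overlap with controls. The log2 fold changes were −0.83 ± 0.11, −2.21 ± 0.12 and −0.99 ± 0.11 (adjusted p = 2.07e-07, 7.35e-18 and 7.3e-09). The BPSIP females lay at the upper end of the exposed males, whose 12 libraries had a lowest, median and highest value of 2.16, 3.65 and 4.96 CPM. Only male BPS library 1 (4.96 CPM) reached the range of the BPSIP females. BPSIP males had 4.07, 3.86 and 3.26 CPM. E2 females had 28.9, 26.4 and 29.8 CPM, above every control library, but the change did not pass (0.28 ± 0.10, adjusted p = 0.0511). It passed with DESeq2, RLE factors, no filter or a fit of the 6 libraries, and the adjusted p was 0.0225 without female E2 library 2. Leprot, the neighbouring gene, had 26.1 ± 2.30 CPM in controls and 24.5 ± 0.291 under BPSIP (−0.09 ± 0.08, adjusted p = 0.420).

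Prlr, the prolactin receptor gene, rose from 408, 392 and 398 CPM in female controls to 489, 508 and 457 under 2,4-BPS and 435, 467 and 489 under BPS. Both groups lay above the controls (0.29 ± 0.06 and 0.23 ± 0.06, adjusted p = 0.000226 and 0.00407). It fell under E2 to 355, 338 and 353 CPM (−0.20 ± 0.06, adjusted p = 0.0101, but 0.0525 without female control library 1). The BPSIP libraries, at 352, 403 and 403 CPM, overlapped the controls. In males the 4 exposures differed in a graded order of 124 ± 1.58 CPM under BPSIP, 106 ± 5.48 under E2, 84.2 ± 5.72 under 2,4-BPS and 74.6 ± 2.45 under BPS. Each neighbouring pair of this order differed, with adjusted p of 0.000414, 2.16e-07 and 0.00305.

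Lifr, the receptor gene for leukaemia inhibitory factor, had 581, 539.9 and 560.1 CPM in female controls. It rose to 821, 878 and 779.5 CPM under 2,4-BPS (0.57 ± 0.06, adjusted p = 1.1e-09) and fell to 344, 316 and 319.6 CPM under E2 (−0.78 ± 0.06, adjusted p = 2.91e-13), with no overlap with controls in either case. The E2 libraries overlapped those of exposed males. BPS libraries had 588, 649 and 630.3 CPM and passed narrowly (0.16 ± 0.06, adjusted p = 0.0482). With the replicate number as a block the adjusted p was 0.0553, and it was 0.0598 without female control library 1, 0.197 without female control library 2, 0.117 without female control library 3, 0.225 without female BPS library 2 and 0.130 without female BPS library 3. BPSIP libraries (492, 554 and 555 CPM) overlapped the controls. Il6st, the signalling chain shared with Lifr, rose under 2,4-BPS (0.24 ± 0.08) and fell under BPSIP (−0.22 ± 0.08).

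In the list of cytokine receptor chains, kinases, STAT factors and inhibitors, with 25 of 27 genes tested, 8 of 25 rose and 2 fell under 2,4-BPS, 6 of 25 rose and 7 fell under BPSIP, 7 of 25 rose and 6 fell under BPS and 5 of 25 rose and 3 fell under E2. The median log2 changes were 0.11, −0.05, 0.07 and −0.04 in that order, where 19.3%, 38.6%, 16.8% and 21% of all genes were called. Cish, an inhibitor gene that STAT5 induces, rose in all 4 (1.32 ± 0.10, 0.76 ± 0.10, 1.05 ± 0.10 and 1.63 ± 0.10). Socs2, an inhibitor of growth hormone signalling, rose under BPS (1.34 ± 0.08) and E2 (1.27 ± 0.08). Ghr, the growth hormone receptor gene, fell under E2 (−0.54 ± 0.05), as did the repressor gene Bcl6 (−1.10 ± 0.11).

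Among the growth factor receptors, Egfr stood out. Female controls had 157, 146 and 149 CPM, 2,4-BPS females 298, 305 and 269.6 and BPS females 309, 343 and 353 CPM. Every library of both groups lay above every control, with log2 fold changes of 0.95 ± 0.06 and 1.16 ± 0.06 (adjusted p = 7.4e-14 and 8.27e-16). BPSIP (138, 159 and 150.3 CPM) overlapped the controls. E2 (138, 125 and 146 CPM) did not pass (−0.15 ± 0.06, adjusted p = 0.0948, and 0.0435 without female E2 library 3). In males the levels were 524, 602 and 550.3 CPM under 2,4-BPS, 654, 716 and 681 under BPSIP, 627, 628 and 588 under BPS and 673, 767 and 778 under E2. There 2,4-BPS had the lowest mean of the 4 exposures (−0.28 ± 0.04 against the mean of the other 3, adjusted p = 5.22e-06) and E2 the highest (0.28 ± 0.04, adjusted p = 2.36e-06). Neither passed against its neighbour (BPS over 2,4-BPS 0.12 ± 0.05, adjusted p = 0.0891, and E2 over BPSIP 0.12 ± 0.05, adjusted p = 0.0946). Both passed with no filter (0.0267 and 0.0279). The adjusted p was 0.00596 without male 2,4-BPS library 2 and 0.00315 without male E2 library 1.

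Met and Fgfr4 shifted little in females. Met, the receptor gene for hepatocyte growth factor, had 85.3, 92.9 and 78.8 CPM in controls and 69.7, 78.1 and 77.8 under BPSIP (−0.19 ± 0.07, adjusted p = 0.0276, but 0.0596 without female control library 1, 0.213 without female control library 2 and 0.159 without female BPSIP library 1). Under 2,4-BPS it had 97.3, 101 and 93.4 CPM (0.19 ± 0.07, adjusted p = 0.0518, and 0.0211 without female control library 2 and 0.0483 without female 2,4-BPS library 3). It also passed with a fit of 6 or 30 libraries or no filter. Fgfr4 had 34.2, 31.9 and 32.4 CPM in controls, 33.2, 41.8 and 40.5 under BPSIP and 38.5, 39.4 and 41.0 under E2. It rose in both (0.23 ± 0.08 and 0.27 ± 0.08, adjusted p = 0.0200 and 0.0113). The BPSIP group overlapped the controls and its adjusted p was 0.0759 without female control library 2, 0.0625 without female control library 3, 0.148 without female BPSIP library 2 and 0.0989 without female BPSIP library 3. That of E2 was 0.0553 without female control library 2 and 0.0547 without female E2 library 3. In males both genes were lowest under BPS, Met at 70.7, 66.3 and 63.5 and Fgfr4 at 26.4, 26.1 and 25.5 CPM (−0.42 ± 0.04 and −0.54 ± 0.07 against the mean of the other 3 exposures), and both were highest among the exposures under E2 (0.39 ± 0.04 and 0.50 ± 0.06).

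Of 31 tested genes of the EGF and HGF branch, 10 of 31 rose and 1 fell under 2,4-BPS, 1 of 31 rose and 9 fell under BPSIP, 5 of 31 rose and 2 fell under BPS and 1 of 31 rose and 5 fell under E2. The median log2 changes were 0.08, −0.03, −0.02 and −0.10. Of all genes 19.3%, 38.6%, 16.8% and 21% were called in the same 4 comparisons. Erbb3, a receptor gene that pairs with other ErbB receptors, went from 136 ± 3.59 to 64.9 ± 4.95 CPM under BPSIP (−1.07 ± 0.07). Errfi1, an inhibitor of the EGF receptor, rose under BPS (0.62 ± 0.05) and E2 (0.62 ± 0.05). Nrg4, a ligand of the ErbB family, rose under 2,4-BPS (0.67 ± 0.10) and fell under BPSIP (−0.94 ± 0.11) and E2 (−1.87 ± 0.12). Of 13 genes around the FGF receptors, 3 of 13 rose and 5 fell under 2,4-BPS, 1 of 13 rose and 6 fell under BPSIP, 3 of 13 rose and 1 fell under BPS and 5 of 13 rose and 1 fell under E2. Their median log2 changes were −0.20, −0.20, 0.08 and 0.09. Klb, the co-receptor gene of Fgfr4, fell under 2,4-BPS (−0.20 ± 0.07) and BPSIP (−0.28 ± 0.07) and rose under E2 (0.34 ± 0.07).

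**Figure D3:**
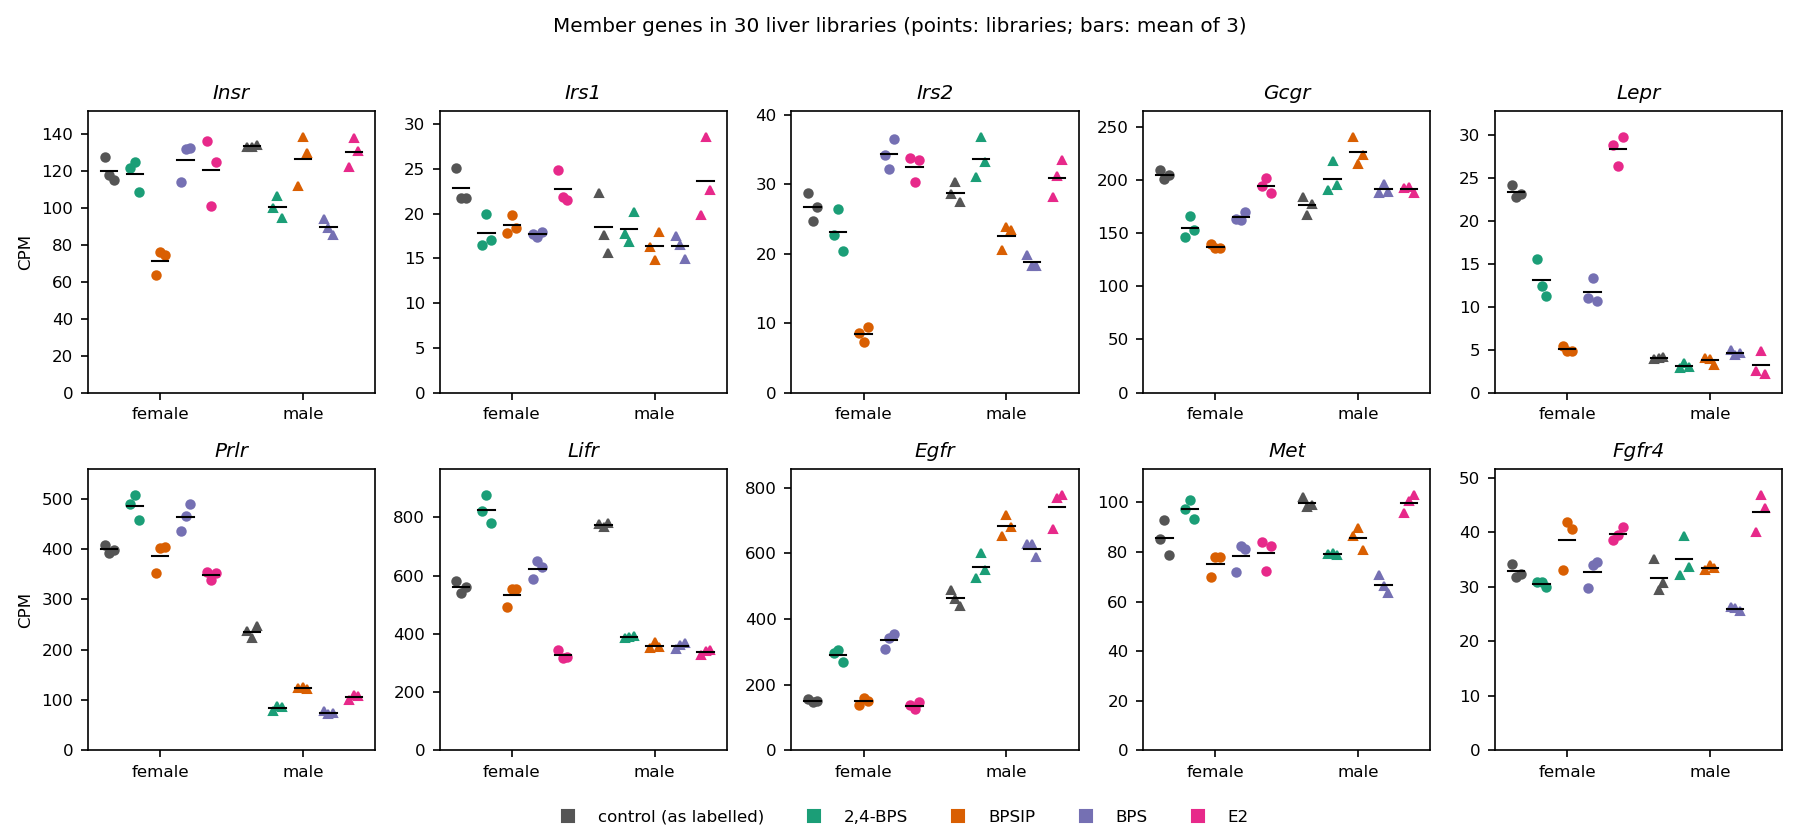
CPM of each member in every library, with circles for females, triangles for males, a colour per treatment and a black bar at the mean of 3 libraries. Lepr is high in females under control and E2, lower under 2,4-BPS and BPS and lowest under BPSIP, while the male libraries lie between 2.16 and 4.96 CPM; the labelled male controls stand apart for Prlr and Lifr.

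The 3 bisphenols were given at the same stated dose and for the same time, so their readouts were compared directly. In females 2,4-BPS and BPS, which differ in the position of a hydroxyl group, differed in 4 of 10 members (19.5% of all genes called, 10.2% higher and 9.23% lower). Irs2 was lower under 2,4-BPS (−0.57 ± 0.09, adjusted p = 1.9e-05), and Lifr (0.40 ± 0.06, adjusted p = 1.52e-06) and Met (0.31 ± 0.07, adjusted p = 0.00131) were higher. Egfr was lower (−0.21 ± 0.06, adjusted p = 0.0169, but 0.120 without female 2,4-BPS library 3, 0.0778 without female BPS library 2 and 0.103 without female BPS library 3). For the other 6 members no difference passed. The 95% interval of the log2 difference was −0.06 to 0.39 for Lepr, −0.31 to 0.12 for Insr, −0.18 to 0.20 for Irs1, −0.20 to 0.01 for Gcgr, −0.05 to 0.18 for Prlr and −0.27 to 0.06 for Fgfr4.

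BPSIP, with its isopropyl ether, differed from BPS in 8 of 10 members in females (39.3% of all genes called, 19.2% higher and 20.1% lower), 7 of them lower. Irs2 (−2.04 ± 0.10, adjusted p = 1.72e-18), Lepr (−1.22 ± 0.12, adjusted p = 1.41e-10), Egfr (−1.18 ± 0.06, adjusted p = 7.14e-17) and Insr (−0.83 ± 0.10, adjusted p = 4.71e-06) showed the largest differences. Irs1 and Met did not pass, with intervals of −0.12 to 0.26 and −0.21 to 0.07. 2,4-BPS and BPSIP differed in 9 of 10 members (35.5% called, 18.3% higher and 17.3% lower), 8 of them higher under 2,4-BPS. Irs1 was the exception, with an interval of −0.25 to 0.13.

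In males 2,4-BPS and BPS differed in 6 of 10 members, all higher under 2,4-BPS (27.5% of all genes called, 15.2% higher and 12.3% lower). BPSIP and BPS differed in 7, all higher under BPSIP (35.4%, 18.6% higher and 16.8% lower), and 2,4-BPS and BPSIP in 6 (31.3%, 15.8% higher and 15.5% lower). Irs2 in males was higher under 2,4-BPS than under BPS (0.86 ± 0.09, adjusted p = 8.9e-13), where the female difference was −0.57. Insr in males was higher under BPSIP than under BPS (0.52 ± 0.06, adjusted p = 9.65e-11), where the female difference was −0.83. Lepr did not pass in these 3 male pairs (adjusted p = 0.0515, 0.344 and 0.382). The first of these passed with DESeq2 (0.0497), RLE factors (0.0490), the replicate block (0.0468) and fits of 6 (0.0314) or 30 libraries (0.00777). Over all 15 male libraries it had 68 to 155 counts per library, and the intervals, not adjusted for the number of genes, were −1.02 to −0.12, −0.74 to 0.16 and −0.74 to 0.17.

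**Figure D4:**
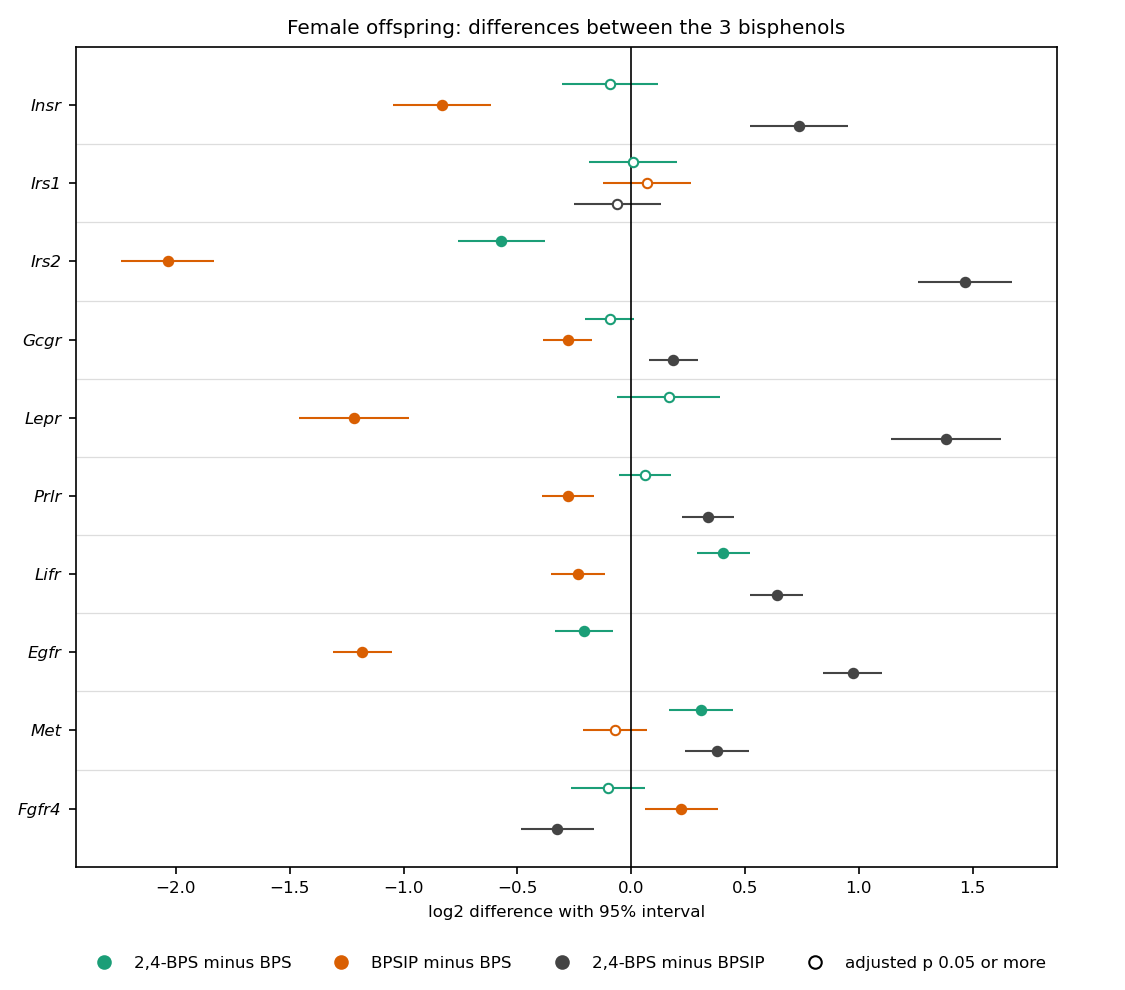
Log2 difference with its 95% interval for each member between pairs of bisphenols in females, 3 libraries per group; open circles did not pass an adjusted p of 0.05. BPSIP minus BPS lies furthest from 0 for Irs2 (−2.04), Lepr (−1.22) and Egfr (−1.18), while 2,4-BPS minus BPS stays within −0.57 and 0.40.

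Against the reference hormone E2, females given 2,4-BPS differed in 9 of 10 members (29.8% of all genes called, 16.1% higher and 13.7% lower), BPSIP in 7 (38.4%, 19.7% higher and 18.6% lower) and BPS in 7 (25.6%, 13.4% higher and 12.2% lower). Lepr was lower and Lifr higher under each bisphenol than under E2. The log2 differences were −1.10 ± 0.11, −2.49 ± 0.12 and −1.27 ± 0.11 for Lepr and 1.35 ± 0.06, 0.71 ± 0.06 and 0.94 ± 0.06 for Lifr, in the order 2,4-BPS, BPSIP and BPS. In males BPS differed from E2 in 7 members, all lower (37.5% of all genes called, 17% higher and 20.5% lower). These were Insr (−0.57), Irs1 (−0.56), Irs2 (−0.75), Prlr (−0.53), Egfr (−0.29), Met (−0.61) and Fgfr4 (−0.78). Lepr had the other sign, higher under BPS, and did not pass (0.52 ± 0.23, adjusted p = 0.0622). Its adjusted p was 0.0448 with the replicate block and 0.00976 in the fit of 30 libraries, and without male E2 library 2 the difference was 0.98 (adjusted p = 0.00113). 2,4-BPS differed from E2 in 7 (28.4%, 13.6% higher and 14.9% lower) and BPSIP in 6 (26.4%, 12.4% higher and 14.1% lower).

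The sexes were compared within each exposure, all 30 libraries in a single fit. Prlr was higher and Egfr lower in females under every exposure, and Lepr was higher. The 15 female libraries had a lowest, median and highest Prlr of 338, 403 and 508 CPM, against 73.0, 94.3 and 126 CPM in the 12 exposed male libraries. For Egfr the values were 125, 157 and 353 CPM in females and 524, 641 and 778 CPM in exposed males. Neither gene overlapped between these libraries. The size of the sex difference changed with the exposure. Relative to the other 3 exposures it shifted by −1.76 ± 0.19 for Lepr under BPSIP (adjusted p = 1.19e-11) and by 0.90 ± 0.07 for Egfr under 2,4-BPS (adjusted p = 1.13e-13). Lepr differed by 3.16 ± 0.16 under E2, 2.09 ± 0.16 under 2,4-BPS and 1.33 ± 0.16 under BPS. Under BPSIP it was 0.43 ± 0.17 (adjusted p = 0.0246, but 0.0774 without female BPSIP library 1 and 0.103 without male BPSIP library 3). Egfr differed by −2.44 ± 0.07 under E2 and −2.20 ± 0.07 under BPSIP but by −0.94 ± 0.06 under 2,4-BPS and −0.87 ± 0.06 under BPS.

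Irs2 was lower in females than in males under BPSIP (−1.42 ± 0.10) and 2,4-BPS (−0.54 ± 0.09) and higher under BPS (0.87 ± 0.09). Insr was lower in females under BPSIP (−0.83 ± 0.09) and higher under BPS (0.49 ± 0.09). Under 2,4-BPS it was higher in females, against the sign of Irs2 (0.24 ± 0.09, adjusted p = 0.0329, but 0.0850 without female 2,4-BPS library 1, 0.119 without female 2,4-BPS library 2, 0.0709 without male 2,4-BPS library 1 and 0.114 without male 2,4-BPS library 3). Lifr was higher in females under 2,4-BPS (1.09 ± 0.05), BPS (0.79 ± 0.05) and BPSIP (0.57 ± 0.05), and under E2 the value was −0.05 ± 0.05 (adjusted p = 0.506). In all, 9 of 10 members differed between the sexes under 2,4-BPS, 9 under BPSIP, 9 under BPS and 4 under E2, where 47.4%, 51.2%, 39.5% and 34.6% of all genes were called. With a library left out the counts were 7 to 9 under 2,4-BPS, 7 to 9 under BPSIP, 9 under BPS and 4 to 5 under E2. Fgfr4 under 2,4-BPS (−0.20, adjusted p = 0.0388) did not pass with no filter (0.0758) or without the labelled male controls (0.0532). Between female controls and labelled male controls 7 differed (30.2% of all genes called). Of the 12 Kupffer cell and macrophage markers, 12 were higher in females under each bisphenol and 11 under E2. The clock list had 13 of 19 higher and 6 lower in females under 2,4-BPS, 4 of 19 higher and 11 lower under BPSIP, 10 of 19 higher and 3 lower under BPS and 1 of 19 higher and 11 lower under E2. The lymphocyte and neutrophil list had 11 of 11 higher and 0 lower under BPSIP, and the endothelial list had 0 of 10 higher and 8 lower there but 8 of 10 higher and 0 lower under 2,4-BPS. The part of these lists in the sex differences was not tested. The Prlr difference between the controls was 0.76 ± 0.05, against 2.53 ± 0.06 under 2,4-BPS.

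**Figure D5:**
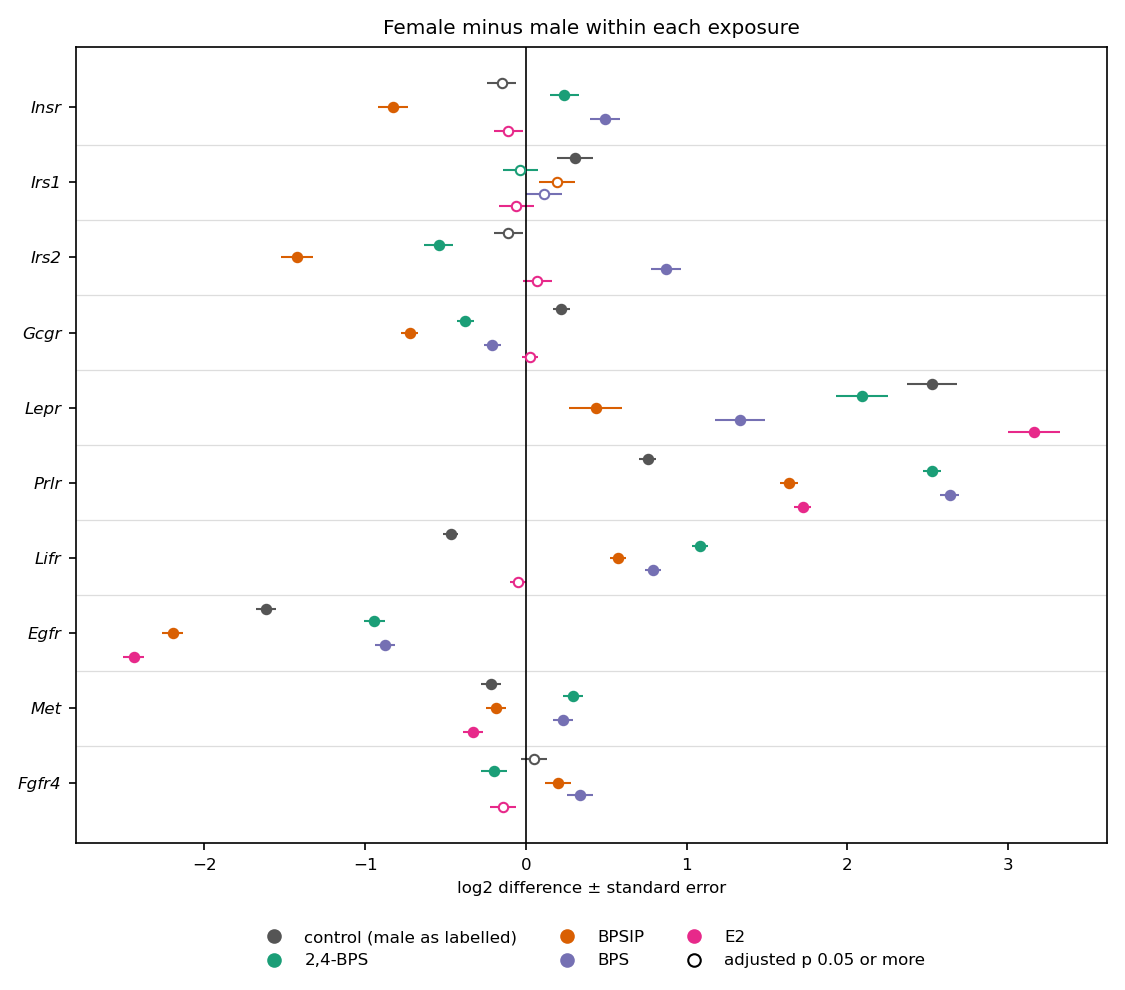
Log2 difference of females minus males with its standard error for each member within each treatment; open circles did not pass an adjusted p of 0.05 and the control comparison uses the labelled male controls. Prlr lies between 0.76 and 2.64, Egfr between −2.44 and −0.87, and Lepr between 0.43 under BPSIP and 3.16 under E2.

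Each exposed male group was also set against the mean of the other 3, which leaves the labelled controls out. 2,4-BPS had 2 members higher and 3 lower (25.8% of all genes called, 13.5% higher and 12.3% lower), BPSIP 4 and 1 (31.3%, 15.9% higher and 15.4% lower), BPS 1 and 8 (35.8%, 16.9% higher and 18.9% lower) and E2 7 and 1 (31.5%, 17.3% higher and 14.2% lower). BPS thus had the lower levels of most members and E2 the higher ones, with median member differences of −0.34 and 0.30 beside 0.00 and 0.02 over all genes. Marker lists moved in the same comparisons. Hepatocyte markers summed to 89931 to 92591 CPM in BPS males (1 of 11 higher and 8 lower) and to 106927 to 118707 under 2,4-BPS, 104738 to 107741 under BPSIP and 100281 to 109732 under E2. Endothelial markers summed to 407 to 426 CPM under BPS (1 of 10 higher and 6 lower) and 545 to 569 under BPSIP (9 of 10 higher and 0 lower). Kupffer cell and macrophage markers summed to 881 to 944 CPM under E2 (6 of 12 higher and 1 lower) and 711 to 736 under 2,4-BPS (1 of 12 higher and 6 lower). The clock list had 4 of 19 higher and 9 lower under 2,4-BPS, 12 of 19 higher and 5 lower under BPSIP, 7 of 19 higher and 7 lower under BPS and 6 of 19 higher and 10 lower under E2. The part of these lists in the member differences was not tested. The BPS count of 9 was 5 without male BPS library 3. Against the labelled male controls 3 members were higher and 4 lower under 2,4-BPS (38.2% of all genes called, 18.9% higher and 19.4% lower), 2 and 4 under BPSIP (34.9%, 17.4% higher and 17.4% lower). Under BPS it was 1 and 6 (43.2%, 20.6% higher and 22.7% lower), and under E2 4 and 2 (33.6%, 17.2% higher and 16.4% lower). Prlr (−1.68 to −0.92) and Lifr (−1.19 to −0.99) were lower and Egfr (0.28 to 0.69) higher in all 4. Exposure and the state of the labelled controls cannot be told apart in these 4 comparisons.

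The genes whose 10 group means followed a member most closely were found by the root mean square difference of centred log2 CPM. Insr was nearest to Peli2 (0.08) and Cnot6l (0.10), Irs2 to Arl4a (0.27) and Klf11 (0.28), and Irs1 to Zfp229 (0.094) and Slc10a3 (0.097). Lepr was nearest to Ncmap (0.39) and Acot2 (0.49), and Lifr to Tk1 (0.14) and Paox (0.16). For Prlr, Rtn4 was among the 2 nearest (0.26). Egfr was nearest to Mn1 (0.29) and Ttc39c (0.34), Met to Macf1 (0.070) and Zbtb38 (0.071), Fgfr4 to Stom (0.075) and Nectin1 (0.093), and Gcgr to Elmo3 (0.063) and Vmac (0.064). The standard deviation of the member itself over the 10 groups was 1.21 for Lepr, 0.608 for Irs2 and 0.191 for Met on the same scale. Likeness was taken over group means of 11462 genes.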

How the data were processed

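The submitters' processing notes name HISAT2, HTSeq, DESeq2 and R 3.2.0 without their roles. For build, annotation and strand setting, nothing is given in the sources used here. Deposited by the authors were counts per gene symbol and FPKM. The deposited FPKM equal the counts over the library sum and 1 length per gene (largest relative deviation 3.46e-06). Libraries held 29711711 to 37719069 counts. The tests used edgeR 4.0.16 (R 4.3.3) on the counts as deposited. The steps were filterByExpr by group, TMM factors and a robust quasi-likelihood fit, with Benjamini-Hochberg adjustment over all genes of a fit at 0.05. The fits held 13874 genes over 15 female libraries, 13474 over 15 male libraries and 14131 over all 30. CPM use the TMM factors of the last fit. P values rest on the spread between libraries within groups, shared over all groups of a fit. The common biological coefficient of variation that edgeR estimated was 0.0915 in the female fit, 0.0873 in the male fit and 0.0899 in the fit of all 30. Small p values depend on this low spread. Libraries of a group differed beyond counting noise (chi-square per gene 5.44 to 22.4 over 30 pairs). The members, lists and tests were chosen with earlier results of these data known. Genes were named by rule: the members; in each pathway list up to 2 called genes each way per female comparison, mean CPM 1 or more and groups apart; a fixed panel of partners; and the 2 nearest genes per member. Some genes that the rule names are not reported here. Alternatives were DESeq2 1.42.0, RLE factors, no filter, a replicate block, leaving out each library and other sets of libraries. The fit was also run on counts simulated from its own estimated spread. Such counts cannot test that spread or whether the libraries are independent.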

Additional observations from a re-analysis of the deposited data

Results flagged for a closer look

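A difference between the sexes was tested as the departure of an exposure from the other 3 exposures in females minus the same departure in males, on the log2 scale and without any control library. It passed an adjusted p of 0.05 (edgeR) in 30 of 40 tests of the members. The share of all genes called was 28% for 2,4-BPS, 41.7% for BPSIP, 29.3% for BPS and 30.4% for E2. The sign of a value gives the direction of this difference of departures, not which sex had the higher level. Prlr and Lepr, for instance, were higher in females under every exposure.

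For BPSIP the difference of departures was negative in 7 members: Lepr (−1.76 ± 0.19), Irs2 (−1.56 ± 0.11), Insr (−1.03 ± 0.11), Egfr (−0.78 ± 0.07), Prlr (−0.66 ± 0.06), Gcgr (−0.54 ± 0.06) and Met (−0.25 ± 0.07).

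For BPS the difference of departures was positive in 7 members, namely Irs2 (1.502 ± 0.11), Egfr (0.99 ± 0.07), Insr (0.72 ± 0.11), Prlr (0.67 ± 0.06), Fgfr4 (0.38 ± 0.09), Met (0.30 ± 0.07) and Lifr (0.25 ± 0.06). That of Lepr was negative (−0.56 ± 0.18, with an adjusted p of 0.0600 without female BPS library 3 and 0.0634 without male BPS library 1). That of Gcgr was positive and did not pass (0.15, adjusted p = 0.0525). It passed with RLE factors, with no filter (0.0344) and with DESeq2 (0.0290).

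2,4-BPS had 5 positive differences of departures, Egfr (0.90 ± 0.07), Lifr (0.65 ± 0.06), Prlr (0.53 ± 0.06), Insr (0.39 ± 0.11) and Met (0.39 ± 0.07), and 2 negative ones, Irs2 (−0.38 ± 0.11) and Fgfr4 (−0.33 ± 0.09). The adjusted p of Fgfr4 was 0.0562 without male 2,4-BPS library 2.

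E2 had 3 positive differences of departures, Lepr (1.88 ± 0.18), Gcgr (0.46 ± 0.06) and Irs2 (0.44 ± 0.10). The 5 members with a negative one were Egfr (−1.10 ± 0.07), Lifr (−0.86 ± 0.06), Prlr (−0.55 ± 0.06), Met (−0.44 ± 0.07) and Fgfr4 (−0.26 ± 0.09). The adjusted p of Fgfr4 was 0.0746 without male E2 library 2.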

How the results depend on the processing

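No called member changed sign in the alternatives run. Of 330 member results, DESeq2 kept 323 on their side of the threshold, RLE factors kept 325, and 323 held with no filter. Fits of the 6 compared libraries kept 193 of 200 and fits of all 30 kept 229 of 240. The fit without the labelled male controls, chosen after seeing the data, kept 177 of 180. Leaving out a library of the compared groups ended 112 and added 50 calls among 2940 results. Counts of called members moved by over 1.5 times in 2 of 33 comparisons: with a library left out, female E2 against control ranged from 2 to 5 and male BPS against the other 3 exposed from 5 to 9. The replicate block kept 325 of 330 results and the count of 4 for female E2 against control. Same-numbered libraries correlated over 0.1 in 0 of 30 female and 1 of 30 male pairs, and 0 of 15 libraries in either sex correlated best with its own number, so the numbers were not treated as pairing. Depth limits Lepr in males, at 68 counts in the shallowest case.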

Other observations

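Lepr, Prlr, Lifr and Egfr, the 4 members whose female controls lay furthest from the mean of the exposed male groups, did not shift together in exposed females. On the log2 scale BPSIP moved Lepr by 81.9% of the distance from female controls to the mean of the exposed male groups, and Egfr by −0.847%. 2,4-BPS moved Egfr by 45.2% and Lepr by 30.9% of that distance, and BPS by 54.9% and 37.1%. Prlr moved the opposite way under these compounds (−13.6% and −10.5%). E2 moved Lifr by 123% and Lepr by −10.4%. These shares describe group means and carry no test.

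Ligand and target genes beside the members also differed between the sexes under BPSIP. Fgf21, the gene of a fasting hormone that the liver secretes, had 0.678 ± 0.0822 CPM in BPSIP females against 4.60 ± 0.0891 in female controls, and 8.87 ± 1.93 CPM in BPSIP males (log2 female minus male −3.70 ± 0.24). Igfbp1, an insulin-repressed gene, had 7.11 ± 0.696 and 52.4 ± 0.797 CPM (−2.88 ± 0.07). Hgf, the ligand gene of the Met receptor, had 10.7 ± 1.04 and 17.8 ± 1.74 CPM (−0.74 ± 0.12).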
